A study of Homo sapiens with 9 samples.

Results

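Transcripts of nicotinic and muscarinic acetylcholine receptors and of acetylcholinesterase were examined in BEAS-2B cells, an immortalized human bronchial epithelial cell line, grown as untreated control, PG/VG or EC cultures. Members were the 10 genes CHRNA1, CHRNA5, CHRNA7, CHRNA9, CHRNA10, CHRNB1, CHRNB2, CHRM3, CHRM4 and ACHE, found by Ensembl identifier among the 63187 genes of the count table. PG/VG cells received for 24 h a 2% (v/v) dilution of condensed aerosol from propylene glycol and vegetable glycerin alone, the carrier, without nicotine or flavor. EC cells received for 24 h the same dilution of condensed aerosol from a tobacco-flavored liquid with 18 mg/mL nicotine, so nicotine and flavor came together and cannot be told apart. Control cells received medium alone. Each condition had 3 libraries, one in each of the batches 2, 3 and 4, named here by the batch number, and every library came from the same cell line.

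Acetylcholine acts through 2 unrelated receptor families. Nicotinic receptors are ion channels of 5 subunits that open when acetylcholine or nicotine binds, and their subunits combine by type, alpha with beta in most tissues and alpha7 or alpha9 also on its own. Muscarinic receptors are single-chain G protein-coupled receptors, of which M1, M3 and M5 act through Gq, and M2 and M4 through Gi/o, which inhibits adenylyl cyclase. Acetylcholinesterase ends the signal by splitting acetylcholine. Airway epithelium is known to make acetylcholine without nerves and to respond to nicotine through its own receptors.

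The question whether these genes were expressed at all was answered first. A gene was taken as expressed with at least 10 counts in at least 3 of the 9 libraries, which 7 of the 10 members reached, CHRNB1, CHRNA5, CHRM4, ACHE, CHRNA10, CHRNA7 and CHRNB2. CHRNB2 reached it through treated libraries alone. A count of 0 allows up to 3 counts, which is 0.119 to 0.190 CPM (count per total count, times 1e6) in these libraries and covers counting error only. CHRNA1, CHRNA9 and CHRM3 stayed at or near that floor. The total of counts on genes lay between 16168260 and 24917838 per library, from 16168260 to 17882770 in control and from 18427225 to 24917838 in the treated libraries, so every treated library was deeper than every control library. The libraries of batch 4 stood apart in all conditions, with 40.6% of the 16030 tested genes called against batches 2 and 3 (20.1% higher, 20.5% lower).

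The mRNA of 2 nicotinic subunits, the beta1 subunit CHRNB1 and the accessory subunit CHRNA5, was the most abundant of the family. On the per-length scale TPM, in which each library sums to 1e6 after division by exon length, CHRNB1 had a mean of 16.2 ± 2.58 (SD, n = 9) and CHRNA5 a mean of 10.4 ± 2.00. Together they made up 85.0% to 93.4% of the summed TPM of all 16 nicotinic subunit genes in each library. CHRNB1 ranked above CHRNA5 in 9 of 9 libraries and CHRNA5 above CHRM4 in 9 of 9, so these places exceeded the spread between libraries. Of the exon length, 28.4% in CHRNA5 and 14.5% in CHRNB1 overlaps other genes. Reads overlapping several genes were ignored, while TPM divides by the full length, and the effect on the order was not tested. CHRNB1 is known from the skeletal muscle receptor, whose alpha1 partner CHRNA1 was listed at 0 to 2 counts, delta CHRND at 0 to 2, epsilon CHRNE at 1 to 3 and gamma CHRNG at 0 to 2.

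Below these came the M4 receptor gene CHRM4 with a mean TPM of 3.19 ± 1.50, and ACHE with 1.64 ± 1.22. CHRM4 lay above ACHE in 7 of 9 libraries, and with the canonical transcript as length in 5 of 9, so their order was not settled. The alpha10 gene CHRNA10 had a mean TPM of 0.919 ± 0.303 and was below ACHE in 7 of 9 libraries. CHRNB2, the beta2 subunit of the main brain receptor, had 0.375 ± 0.167, and CHRNA7, the subunit of the alpha7 channel, 0.206 ± 0.0493. Their order turned with the length used, merged exons or the canonical transcript. On canonical transcripts CHRNB2 was above CHRNA7 in 0 of 9 libraries. The lowest means, of CHRNA9, CHRNA1 and CHRM3, were 0.111, 0.0467 and 0.0409. CHRNA9 was above CHRNA1 in 5 of 9 libraries and CHRNA1 above CHRM3 in 4 of 9.

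**Figure D1:**
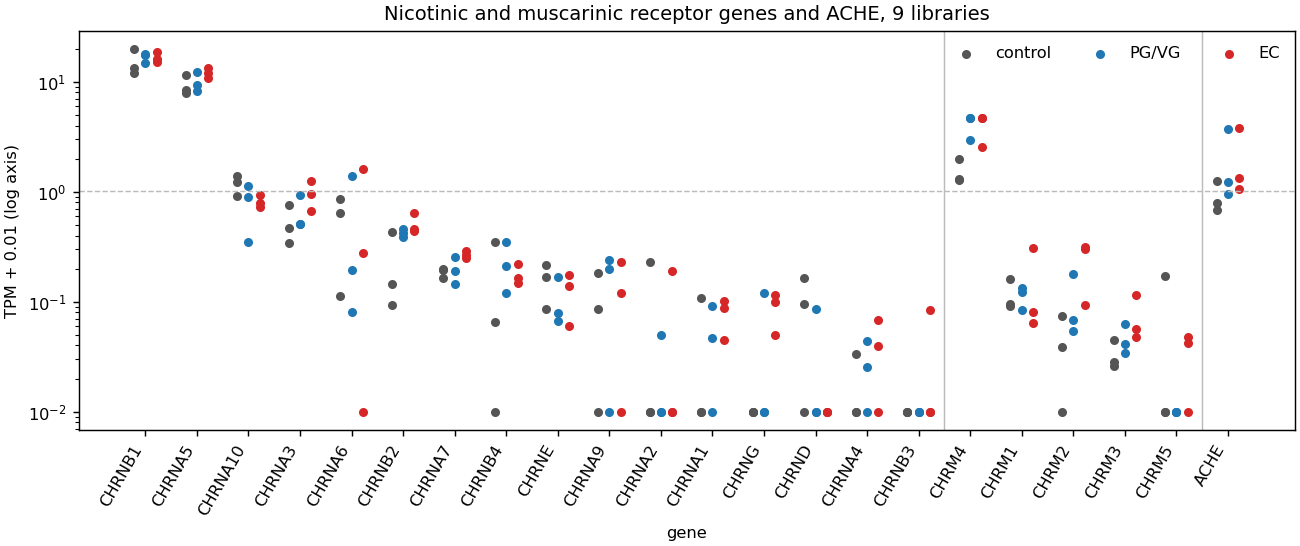
TPM plus 0.01 on a log axis for the 16 nicotinic subunit genes, the 5 muscarinic genes and ACHE, each point a library colored by condition and the dashed line at a TPM of 1. CHRNB1 and CHRNA5 stand above the other nicotinic genes in every library, and of the muscarinic genes CHRM4 stands above the rest.

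The members with low counts had these values. CHRNA1 had 0, 0 and 2 counts in control batches 2, 3 and 4, 1, 0 and 2 in PG/VG and 1, 2 and 2 in EC. CHRNA9, the subunit that pairs with alpha10, had 2, 0 and 1 in control, 0, 3 and 3 in PG/VG and 2, 0 and 3 in EC. CHRM3, the M3 receptor of airway smooth muscle and glands, had 1, 2 and 1 in control, 2, 2 and 4 in PG/VG and 4, 3 and 7 in EC. The EC values of CHRM3 were all above the control values, but at these counts the difference was not detectable. Without a filter its log2 fold change in EC vs. control was 1.28 with an adjusted p of 0.767.

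The other receptor genes were mostly near the floor as well. Of 13 further genes, only CHRNA3, with 6 to 26 counts, and CHRFAM7A, with 16 to 53 counts, were expressed by the same rule. CHRFAM7A is a near-identical partial copy of CHRNA7, and reads matching both were dropped by the authors, so the level of CHRNA7 is uncertain. The M2 gene CHRM2 had 0, 2 and 1 counts in control, 2, 2 and 7 in PG/VG and 14, 13 and 3 in EC. With no filter its log2 fold change in EC vs. control was 2.71 and its adjusted p 0.0304, but only 2 libraries reached 10 counts, and it was named after its values were seen. CHRNA6 had 18 counts in both treated libraries of batch 4 and 0 to 4 in those of batches 2 and 3, with 6, 1 and 9 in control. Of the genes that make and load acetylcholine, CHAT was listed at 0 or 1 count, and the vesicular transporter SLC18A3 and the choline transporter SLC5A7 at 0 in every library.

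Of the epithelial list KRT7, KRT8, KRT18, KRT19, EPCAM and CDH1 all passed the filter (6 of 6), with a summed CPM between 1457 and 2841. The levels were uneven. Mean CPM in control was 859 for KRT7, 1057 for KRT8 and 545 for KRT18, but 17.6 for KRT19, 1.20 for EPCAM and 0.683 for CDH1. CDH1 reached 10 counts in 6 libraries and was called lower in batch 4 vs. batches 2 and 3 (log2 -2.08, adjusted p = 0.000172 in edgeR). The mesenchymal genes VIM, FN1, COL1A1 and CDH2 (4 of 5) were present too, with summed CPM between 3526 and 6964. In EC vs. control KRT7 (-0.45 on the log2 scale, adjusted p = 0.000202), KRT8 (-0.25, 0.0177), KRT18 (-0.46, 0.000125), FN1 (-0.58, 0.000113) and CDH2 (-0.25, 0.0168) were called lower, and in PG/VG vs. control VIM was called lower and COL1A1 higher. In EC vs. PG/VG KRT7 (-0.32, adjusted p = 0.0320) and FN1 (-0.47, 0.00694) were called lower. Of the basal airway list ITGA6 passed (1 of 4), and KRT5, KRT14 and TP63 did not. Of the neuronal list 4 of 8 genes passed, with a summed CPM of 2.54 to 4.85, and RBFOX3, ELAVL4, STMN2 and GAP43 did not. Of the skeletal muscle list MYH3 and TNNT1 passed (2 of 8), and the list had a summed CPM of 19.3 to 32.3. Mean CPM in control was 25.7 for TNNT1 and 0.907 for MYH3. Of the ciliated or secretory list 0 of 4 passed, and of the immune list 0 of 4. No gene of the basal, neuronal or muscle lists was called by edgeR in a comparison between conditions, and an unadjusted p under 0.05 was found for 1 neuronal gene in EC vs. control, 1 in EC vs. PG/VG and 0 genes otherwise. Whether RNA of any of these lists had a part in any receptor value was not tested. In these bulk samples fewer cells of a type and less RNA per cell cannot be told apart.

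In EC vs. control 2 of the 7 tested members rose, CHRM4 and ACHE, beside 13.5% of all 16030 genes tested that were called, 8.07% higher and 5.38% lower. In PG/VG vs. control 1 of 7 rose, CHRM4, beside 4.54% of all genes, 2.63% higher and 1.90% lower. The promoters of these 2 genes are shown so that the called genes can be seen beside their values. The windows are the 250 bases before the RefSeq start, GRCh38.p14, 5′ to 3′ on the strand of the gene, from the RefSeq table used here. Capitals mark matches on either strand to GCGTG (the core of aryl hydrocarbon receptor sites), TGACNNNGC (the antioxidant response core), TGANTCA (the AP-1 site), CACGTG (an E-box) or GGGCGG (the GC box), and overlapping matches run together.

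CHRM4 (chr11:46391777-46392026, minus strand): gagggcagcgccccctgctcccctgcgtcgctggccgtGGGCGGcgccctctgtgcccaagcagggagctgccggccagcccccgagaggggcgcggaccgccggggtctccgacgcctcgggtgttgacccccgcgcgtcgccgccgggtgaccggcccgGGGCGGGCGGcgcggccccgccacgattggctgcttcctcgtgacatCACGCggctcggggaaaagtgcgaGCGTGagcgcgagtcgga
ACHE (chr7:100896130-100896379, minus strand, outermost of its RefSeq starts): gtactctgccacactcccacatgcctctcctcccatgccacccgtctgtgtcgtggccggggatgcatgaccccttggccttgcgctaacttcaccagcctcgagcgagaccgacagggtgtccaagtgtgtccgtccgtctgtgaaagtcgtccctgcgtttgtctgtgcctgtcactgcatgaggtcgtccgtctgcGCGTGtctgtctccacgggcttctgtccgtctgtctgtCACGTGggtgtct

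The CHRM4 window held 2 matches to GCGTG and 3 to GGGCGG and was 77.6% GC. The ACHE window shown held 1 match to GCGTG and 1 to CACGTG. Of its windows not shown, that at chr7:100895889-100896138 held 5 matches to GGGCGG and that at chr7:100894607-100894856 held 1. Among 35116 windows of the same length, GCGTG was in 32.2%, GGGCGG in 42.6%, CACGTG in 6.34%, TGACNNNGC in 10.9% and TGANTCA in 6.57%. A match is a description of letters only. Of the 10 members, 9 had entries in the table, 12 in all, and CHRNA5 did not.

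CHRM4 was 22, 15 and 16 counts in control batches 2, 3 and 4, 78, 60 and 45 in PG/VG and 81, 74 and 34 in EC. No treated library was as low as any control library, in either treatment. Its mean CPM was 1.07 ± 0.279 (SD, n = 3) in control, 2.80 ± 0.756 in PG/VG and 2.68 ± 0.863 in EC. In EC vs. control the log2 fold change was 1.30 ± 0.25 (SE), a 2.46-fold higher level, with an adjusted p of 0.00134, and in PG/VG vs. control 1.36 ± 0.25 with an adjusted p of 0.00275. All 3 batches were higher with EC, by 1.18, 1.72 and 0.881 on the log2 scale in batches 2, 3 and 4. The PG/VG differences in these batches were 1.17, 1.79 and 1.07. The call held in each of the 9 fits that left out 1 library, for both treatments, but not without the batch block (adjusted p = 0.193 for EC and 0.568 for PG/VG), when all genes called fell to 16 and 1. DESeq2 gave an adjusted p of 0.00269 for EC and no adjusted p for PG/VG, where its unadjusted p was 4.99e-05.

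The CHRM4 values moved with those of MDK, the growth factor midkine, a neighbour on the opposite strand whose 3′ end overlaps the CHRM4 end by 49 bases, 1.6% of its exon length. MDK was 58.7-fold more abundant in CPM than CHRM4 in control and was also called, with log2 fold changes of 0.55 ± 0.098 (adjusted p = 0.00106) in EC and 0.58 ± 0.098 (adjusted p = 0.00235) in PG/VG. Over the 9 libraries the Pearson r between the log2 CPM of both genes was 0.895, and 0.903 after removal of batch means, which gave MDK rank 271 of 15330 genes in likeness to CHRM4. Both were lower in batch 4, where MDK had a log2 difference of -0.52 (adjusted p = 7.21e-05). CHRM4 counts were 2.31%, 1.29% and 1.58% of MDK counts in control, 2.91%, 2.92% and 2.82% in PG/VG and 2.85%, 3.09% and 2.46% in EC. These ratios do not overlap between control and treated libraries. The strand setting of the counting is not given in the sources used here, and the part of reads from the MDK side in CHRM4 was not tested. The other expressed neighbours within 10 kb, AMBRA1 and DGKZ, had adjusted p of 0.751 and 0.992 in EC vs. control.

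**Figure D2:**
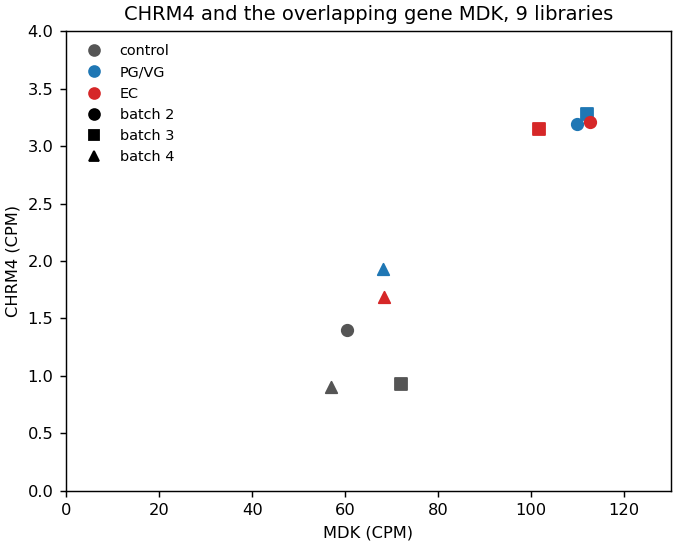
CHRM4 against MDK, both as TMM-scaled CPM, one point per library, with color for condition and shape for batch. The EC and PG/VG libraries of batches 2 and 3 lie highest on both axes, and those of batch 4 lie nearer to the control libraries.

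ACHE was 10, 12 and 21 counts in control batches 2, 3 and 4, 27, 16 and 76 in PG/VG and 31, 22 and 67 in EC. Each treated library was above the control of its own batch, but the groups overlapped, since the control of batch 4 was above the EC and PG/VG libraries of batch 3. Mean CPM was 0.852 ± 0.289 in control, 1.74 ± 1.31 in PG/VG and 1.83 ± 1.30 in EC (SD, n = 3). The log2 fold change in EC vs. control was 1.04 ± 0.31 (SE) with an adjusted p of 0.0281, and the value in each batch was 0.906, 0.306 and 1.47. In PG/VG vs. control it was 0.97 ± 0.31 with an adjusted p of 0.0754, not past the threshold of 0.05. The EC call was lost in 4 of the 9 fits that left out 1 library, without control batch 2 (adjusted p = 0.0600), control batch 4 (0.339, log2 fold change 0.62), EC batch 2 (0.0585) or EC batch 4 (0.164). Without batch 4 the log2 fold change was 0.63 and the adjusted p 0.379, DESeq2 gave 0.102, and the fit without the batch block gave 0.574.

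Of the 7 tested members, CHRM4, CHRNA7 and CHRNA10 had EC and control values that did not overlap, 3 of 7 beside 17.2% of all genes. In PG/VG vs. control CHRM4 alone of the 7 did not overlap, beside 14.1%, and in EC vs. PG/VG all 7 overlapped, while 7.90% of all genes did not. Over the 7 tested members the median log2 fold change was 0.48 for EC and 0.10 for PG/VG, each against control, beside 0.0078 and 0.013 over all genes. These 7 include CHRNB2, which met the filter through treated libraries alone. The 2 comparisons share the same control libraries.

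**Figure D3:**
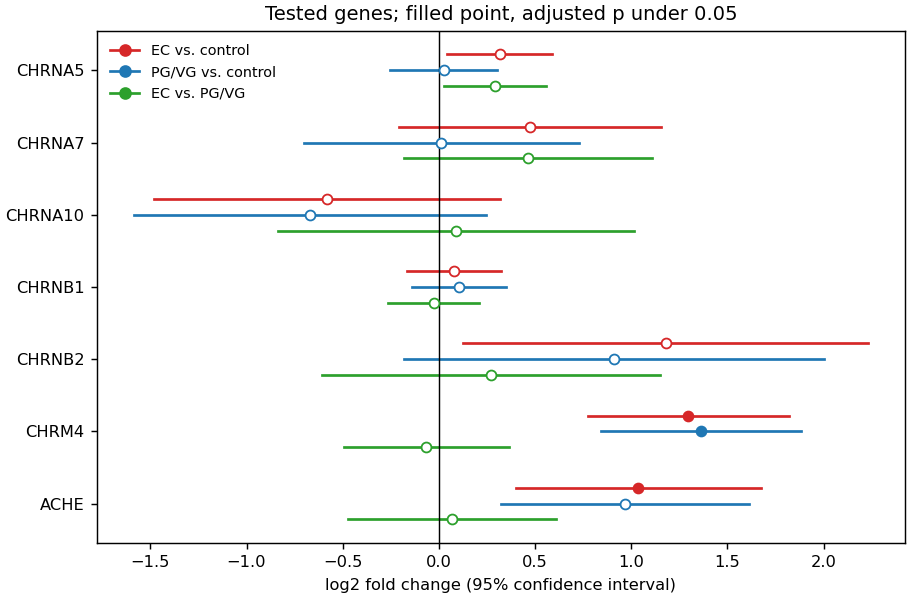
Log2 fold changes with 95% confidence intervals for the 7 tested members, colored by comparison, a filled point standing for an adjusted p under 0.05. CHRM4 is filled in both comparisons with control and ACHE in EC vs. control, and no point is filled in EC vs. PG/VG.

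CHRNA5 is a subunit that joins other alpha and beta subunits and cannot form a channel alone. It had 110, 109 and 172 counts in control, 162, 141 and 222 in PG/VG and 247, 203 and 211 in EC, and the groups overlapped. Mean CPM was 7.80 ± 1.62, 7.95 ± 1.46 and 9.62 ± 0.922 in control, PG/VG and EC. Every EC library was above both other libraries of its batch, with a log2 fold change against control of 0.32 ± 0.13 (adjusted p = 0.119) and against PG/VG of 0.29 ± 0.13 (adjusted p = 0.328), neither past the threshold. Of its exon length 28.4% overlaps genes on the opposite strand, among them CHRNA3, which also had no called difference (0.80 ± 0.40, adjusted p = 0.198 in EC vs. control).

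CHRNB1 had 209, 198 and 352 counts in control, 424, 267 and 381 in PG/VG and 394, 336 and 355 in EC. Mean CPM was 15.1 ± 4.09, 16.1 ± 1.39 and 15.8 ± 1.66, and the control of batch 4 was the highest of all libraries at 19.8 CPM. The log2 fold change was 0.077 in EC vs. control (95% interval -0.166 to 0.320, adjusted p = 0.730), and with PG/VG it was 0.10 (adjusted p = 0.676). By batch the EC values were 0.234, 0.220 and -0.170. A separate term for the treatments in batch 4, added after the data were seen, differed from the effect in the other batches by -0.50 (adjusted p = 0.590 in edgeR), and no gene of all tested was called for this term.

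CHRNA7 had 12, 15 and 16 counts in control, 28, 12 and 19 in PG/VG and 34, 28 and 22 in EC. All EC libraries lay above all control libraries in CPM, 1.21 ± 0.130 against 0.863 ± 0.0890, with PG/VG at 0.872 ± 0.250. The log2 fold change was 0.48 ± 0.33 with an adjusted p of 0.378, not past the threshold. CHRNA10, which forms receptors with alpha9, had 12, 14 and 10 counts in control, 5, 10 and 15 in PG/VG and 12, 10 and 11 in EC. Its CPM was 0.730 ± 0.154 in control and 0.482 ± 0.0601 in EC, where no EC library reached the lowest control. The log2 fold change of -0.58 ± 0.43 had an adjusted p of 0.422. CHRNB2, the partner of alpha4, had 9, 3 and 2 counts in control, 12, 11 and 12 in PG/VG and 15, 19 and 11 in EC. Its log2 fold change was 1.18 ± 0.51 with EC (adjusted p = 0.132) and 0.91 ± 0.53 with PG/VG (adjusted p = 0.346), each against control. Without control batch 2, the control with the most counts, the EC value was 2.14 and the adjusted p 0.0363. No other fit without 1 library passed. CHRNB2 met the filter through treated libraries alone, all deeper than every control library. Its tests against control are therefore no support for a rise.

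**Figure D4:**
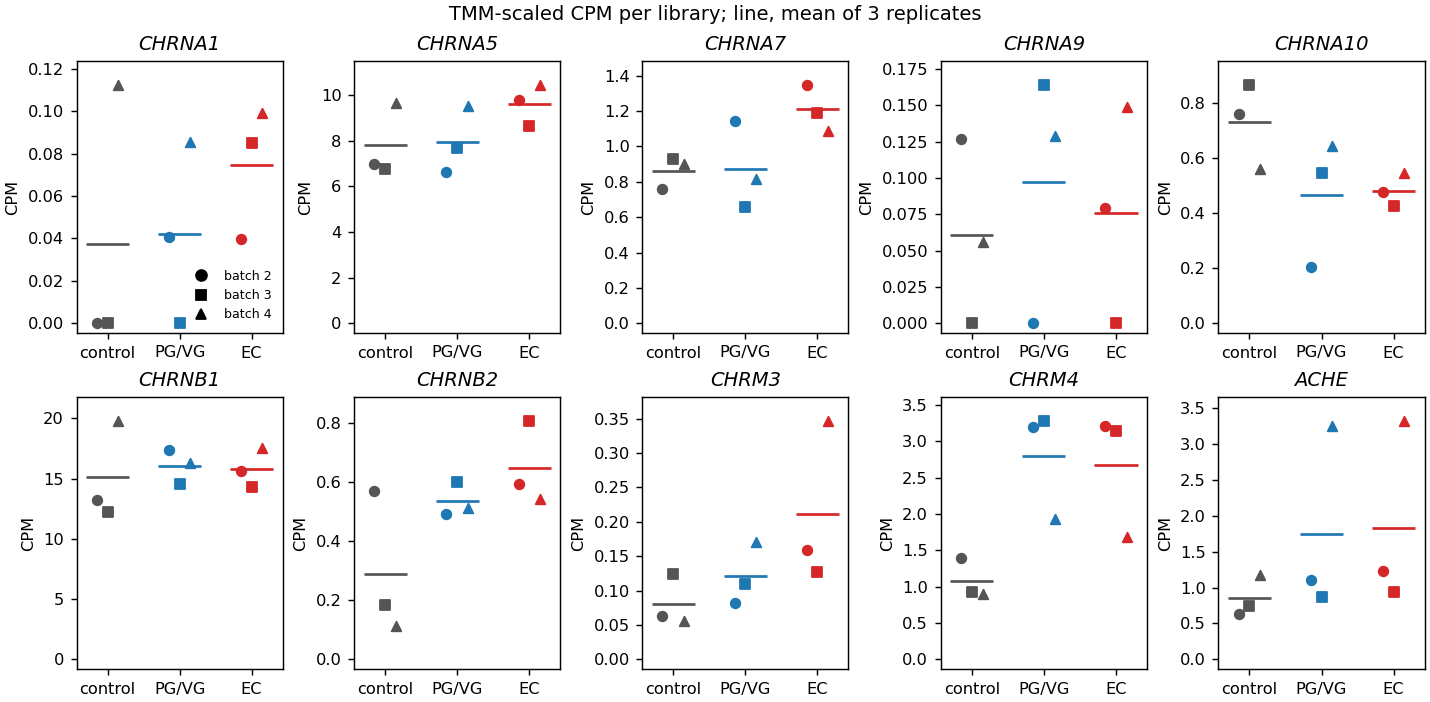
TMM-scaled CPM of each member by condition, with one point per library, shape for batch and a line at the mean of 3 replicates; the scale differs between panels. CHRM4 is higher in every treated library than in every control library, and ACHE is highest in the batch 4 libraries of PG/VG and EC.

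EC vs. PG/VG compared the flavored nicotine liquid with the carrier liquid. The authors did not give the ratio of propylene glycol to glycerol in the EC liquid. A difference in carrier therefore cannot be told apart from nicotine and flavor. None of the 7 members was called by edgeR, and 1, CHRNA5, had an unadjusted p under 0.05. DESeq2 and ComBat-Seq followed by DESeq2 also called 0, though 4 of the 7 had no adjusted p in the former and 2, CHRNA10 and CHRNB2, none in the latter. Of all genes 0.855% were called. For CHRM4 the log2 difference was -0.065 with a 95% interval from -0.494 to 0.364, and for ACHE 0.070 with -0.471 to 0.611. For CHRNB2 it was 0.27 with -0.609 to 1.15, for CHRNA7 0.46 with -0.183 to 1.11 and for CHRNA10 0.089 with -0.838 to 1.02. For CHRNB1 the interval was -0.263 to 0.209. For CHRNA5 it was 0.0275 to 0.555.

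Members also differed between batches, in libraries that carried all 3 conditions. In batch 4 vs. batches 2 and 3, 4 of 7 tested members were called, beside the 40.6% of all genes. ACHE was 2.78-fold higher in batch 4 (log2 1.47 ± 0.23, adjusted p = 1.76e-05), CHRNA5 had a log2 difference of 0.36 (adjusted p = 0.0129), CHRNB1 of 0.30 (adjusted p = 0.0204) and CHRM4 of -0.73 (adjusted p = 0.00685). The calls of CHRNA5 and CHRNB1 were lost without control batch 4 (adjusted p = 0.0824 and 0.342), that of CHRNA5 also without PG/VG batch 4 (0.0845), that of CHRNB1 without EC batch 4 (0.0587), and that of CHRM4 without PG/VG batch 4 (0.0534) or EC batch 4 (0.0771).

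Genes whose pattern was most like that of CHRM4 were RAB11FIP4 (r = 0.989), SAMHD1 (0.987) and GOLM1 (0.984), by Pearson r of log2 CPM over the 9 libraries after subtraction of batch means. For ACHE they were ADRA2C, the alpha2C adrenergic receptor (r = 0.995), the noncoding LYRM4-AS1 (0.989) and TRAPPC11 (0.982). With 9 libraries that share condition and batch, 293 genes had r over 0.9 with CHRM4 and 206 with ACHE among 15330, so these are descriptions.

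The rest of the cholinergic pathway was read from a list of 71 genes, of which 40 passed the filter. In EC vs. control 9 of the 40 were called higher and 2 lower, and in PG/VG vs. control 6 higher and 1 lower. Of these genes, GNAO1 met the filter through treated libraries. In EC vs. PG/VG none was called by edgeR, with 4 at an unadjusted p under 0.05, 0 called by DESeq2 and 1 by ComBat-Seq followed by DESeq2. Without the batch block none of the 11 genes called in EC vs. control passed the threshold in edgeR (adjusted p from 0.159 to 0.639), and 6 of them had an unadjusted p under 0.05. Of all genes, 8.07% were called higher and 5.38% lower in EC vs. control, and 2.63% and 1.90% in PG/VG vs. control. The median log2 fold changes of the 40 were 0.12 and 0.10 in the comparisons with control.

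The next group held genes of choline uptake and phosphorylation and of acetylcholine synthesis, transport and breakdown. Of 16 genes in it, 6 were tested, among them BCHE, which splits acetylcholine and was not called. In EC vs. control 4 rose, beside 8.07% of all genes called higher. They were the choline transporter-like SLC44A1 (0.39 ± 0.073, adjusted p = 0.000967), SLC44A2 (0.37 ± 0.065, adjusted p = 0.000528), SLC44A3 (0.95 ± 0.30, adjusted p = 0.0380) and the choline kinase CHKA (0.33 ± 0.084, adjusted p = 0.0104). SLC44A1 (0.28 ± 0.073, adjusted p = 0.0263) and SLC44A2 (0.37 ± 0.065, adjusted p = 0.00218) rose in PG/VG vs. control too, SLC44A1 in 4 of the 10 fits without 1 library or batch 4 (adjusted p up to 0.196). SLC44A1 was measured at 133, 129 and 101 CPM in control and 166, 181 and 129 in EC, so its groups overlapped while each batch was higher. The SLC44A3 call was lost without any of 5 libraries, control batches 2 and 3, PG/VG batch 4 and EC batches 2 and 3 (adjusted p up to 0.280). That of CHKA was lost without control batch 3, EC batch 3 or EC batch 4 (adjusted p up to 0.172), and without batch 4 as a whole (0.0646).

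Among the genes that assemble or modulate nicotinic receptors, LRP4 and LYNX1 rose with both condensates. LYNX1, a membrane-anchored Ly6 protein that binds nicotinic receptors and damps them, had 8.19, 9.40 and 17.7 CPM in control, 12.6, 12.7 and 24.8 in PG/VG and 13.0, 13.4 and 28.2 in EC. Its log2 fold change was 0.62 ± 0.10 in EC (adjusted p = 0.000373) and 0.51 ± 0.11 in PG/VG (adjusted p = 0.00634), the latter lost without PG/VG batch 2 (adjusted p = 0.0615) or without batch 4 (0.0683). LRP4, the agrin receptor of the neuromuscular junction, had 0.53 ± 0.11 in EC (adjusted p = 0.00201) and 0.39 ± 0.11 in PG/VG (adjusted p = 0.0393), the latter in 3 of the 10 fits without 1 library or batch 4 (adjusted p up to 0.366 without PG/VG batch 2). Of the other tested genes of both groups, 8 in all with these, none was called in these comparisons. LYNX1 was also 1.03 higher on the log2 scale in batch 4 than in batches 2 and 3 (adjusted p = 1.17e-09).

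Of the transducers of muscarinic receptors, 20 of 22 were tested. In EC vs. control 3 were called higher and 2 lower, beside 8.07% and 5.38% of all genes. RGS4, which switches off Gi/o and Gq alpha subunits, fell most, by 1.15 on the log2 scale in EC vs. control (SE 0.12, adjusted p = 7.97e-06), and by 0.69 in PG/VG vs. control (SE 0.12, adjusted p = 0.00240). It had 33.3, 26.4 and 81.8 CPM in control, 16.1, 15.7 and 63.1 in PG/VG and 11.5, 14.1 and 39.7 in EC, lower in every batch with either condensate. Between EC and PG/VG its difference of -0.46 had an adjusted p of 0.0836. GNAO1, the alpha subunit of Go, rose in EC by 2.00 ± 0.45 (adjusted p = 0.00508) from 3, 11 and 1 counts to 34, 32 and 17, with 13, 16 and 10 in PG/VG. In EC vs. control the adenylyl cyclase ADCY6 (0.33 ± 0.071, adjusted p = 0.00308) and the arrestin ARRB1 (0.50 ± 0.11, adjusted p = 0.00422) rose. GNAI1, an alpha subunit of Gi, fell (-0.26 ± 0.077, adjusted p = 0.0245). Without batch 4 the EC values of GNAO1 (adjusted p = 0.0534) and ADCY6 (0.0555) were not past the threshold. The GNAI1 call was lost without control batch 2, control batch 3, EC batch 2 or EC batch 3 (adjusted p up to 0.144). In PG/VG vs. control ADCY6 (0.29 ± 0.071, adjusted p = 0.0194) and ARRB1 (0.40 ± 0.11, adjusted p = 0.0405) rose, in 3 and 4 of the 10 fits without 1 library or batch 4 (adjusted p up to 0.141 and 0.277). The 4 nicotinic kinase partners JAK2, STAT3, AKT1 and SRC had no called difference in any of these comparisons.

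**Figure D5:**
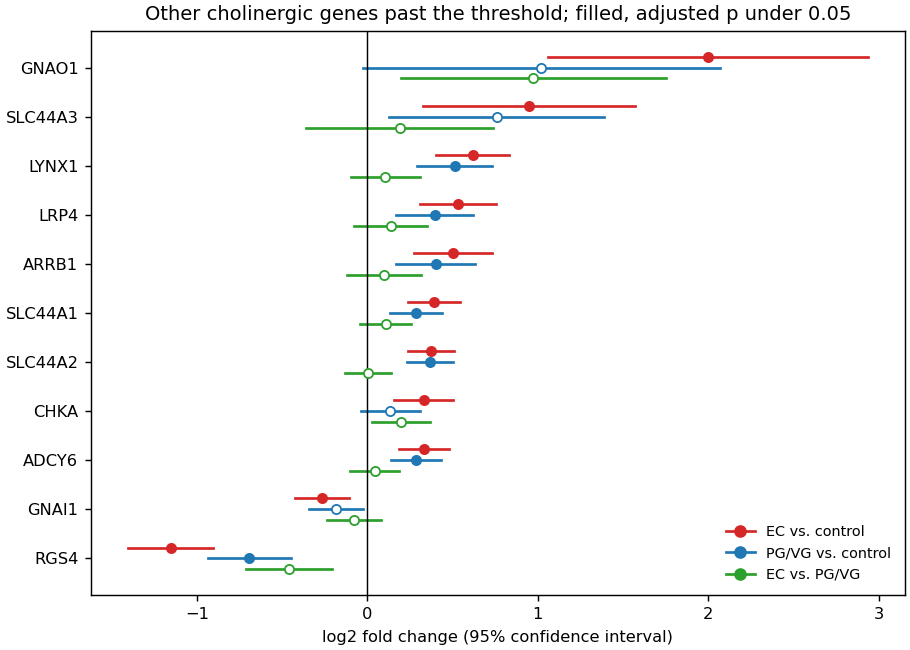
Log2 fold changes with 95% confidence intervals for the 11 other cholinergic genes called in any condition comparison, colored by comparison, filled where the adjusted p was under 0.05. RGS4 lies lowest and GNAO1, which met the filter through treated libraries, highest in EC vs. control, and no point of EC vs. PG/VG is filled.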

How the data were processed

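RNA of BEAS-2B cells was sequenced by the authors after poly-A selection, with 3 biological replicates per condition. Before deposit the authors used fastp for trimming, STAR for alignment to GRCh38.p12 and featureCounts of Subread 2.0.4 for counting on exons. Reads that mapped to several places or overlapped several genes were ignored. The deposited values are raw counts for 63187 genes in 9 libraries, not adjusted for batch. The strand setting is not given in the sources used here. All 9 columns were used.

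A gene needed 10 or more counts in 3 or more libraries, which left 16030. edgeR 4.0.16 (R 4.3.3) was run with TMM scaling, a robust quasi-likelihood fit of all libraries with condition and batch, and Benjamini-Hochberg adjustment over all tested genes at 0.05. The standard error is the fold change divided by the root of the test statistic. CPM uses TMM-scaled sizes, and TPM divides by merged exon length in GENCODE v44, in which 62666 identifiers were found. The replicate number of each library was taken as the batch. Same-number libraries had deviations that correlated at 0.304 to 0.682, against -0.507 to 0.391 for other pairs. All negative values came from pairs with batch 4. Between batches 2 and 3 other pairs ran from 0.251 to 0.391, and same-number pairs of these batches from 0.304 to 0.367. The values thus set batch 4 apart but do not separate batch 2 from batch 3. The authors removed a batch effect before testing, and batch was kept as a block. Replicates were not duplicates (chi-square per gene at least 3.66).

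The members and gene lists were chosen with earlier results of these data known. Named were all members, cholinergic list genes past the threshold in a condition comparison, and the 3 genes most alike to each called member. Alternatives were no block, RLE or library-size scaling, other filters, DESeq2 1.42.0, ComBat-Seq of sva 3.50.0 with DESeq2, the compared conditions alone, a threshold of 0.01 and each library left out. Leaving out batch 4, canonical transcript length, a treatment term for batch 4 and the reading of neighbours within 10 kb were chosen after seeing the data. The scripts were tested on simulated data. Figures were drawn with matplotlib 3.10.9.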

Additional observations from a re-analysis of the deposited data

How the results depend on the processing

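CHRM4 kept its direction in both comparisons with control under every alternative run and lost its threshold only without the replicate block (adjusted p = 0.193 with EC and 0.568 with PG/VG) and, in PG/VG vs. control, under DESeq2, which gave no adjusted p. Without the replicate block 0 members were called in EC vs. control, likewise 0 with PG/VG, where all genes called fell from 2157 to 16 and from 727 to 1. In EC vs. control 1 member was called under DESeq2, 1 at a threshold of 0.01, 1 without batch 4 and 1 to 2 when single libraries were left out. In PG/VG vs. control DESeq2 called 0. In batch 4 vs. batches 2 and 3, 2 members were called at a threshold of 0.01 and 2 to 4 when single libraries were left out. In EC vs. PG/VG the count of members called was 0 under all alternatives run.

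Directions turned only for differences that passed no test. When single libraries were left out, log2 values ran from -0.032 to 0.26 for CHRNB1 with EC and from -0.0062 to 0.29 with PG/VG, against control. In PG/VG vs. control they ran from -0.040 to 0.12 for CHRNA5 and from -0.22 to 0.18 for CHRNA7, which was also -0.011 under DESeq2 and -0.041 under ComBat-Seq with DESeq2. In EC vs. PG/VG they ran from -0.33 to 0.47 for CHRNA10, from -0.15 to 0.080 for CHRNB1 (0.0075 with library size as the only scaling), from -0.14 to 0.0077 for CHRM4 and from -0.045 to 0.26 for ACHE. In batch 4 vs. batches 2 and 3 CHRNA10 ran from -0.13 to 0.56.

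By other rules, 5 members were expressed with at least 10 counts in every library, 8 with at least 1 count in every library and 5 with at least 1 CPM in 3 libraries. With canonical length the median TPM was 6.14 for CHRNA5, 0.362 for CHRNA7 and 0.237 for CHRNB2. The counts of CHRNA10, CHRNB2 and CHRNA7 limit precision, with 95% intervals more than 1 log2 unit wide. In the comparisons with control the intervals of CHRM4 and ACHE were that wide too. In EC vs. control they ran from 0.777 to 1.82 for CHRM4 and from 0.398 to 1.67 for ACHE.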
